A study of Mus musculus with 36 samples.

Results

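Batf3, Irf8, Id2, Wdfy4, Itgae and Cadm1 are genes by which conventional type 1 dendritic cells (cDC1) are made or recognised, and their signals were followed across the sorted stromal cells of the mouse thymus. These 6 genes were chosen by name, with earlier results of these data known, out of 18193 genes with a probe set that carries 1 gene symbol alone. Each gene was represented by the probe set with the highest mean over all arrays, a choice that does not use the groups. All 6 genes passed the filter on dim probe sets and were among the 14495 genes tested. The study hybridised RNA of 36 samples to Affymetrix arrays, 2 arrays for each of 6 populations at each of 3 ages. The populations were Sirpa- dendritic cells (DC), Sirpa+ DC, medullary thymic epithelial cells with high CD80 and MHC class II (mTEChi), medullary thymic epithelial cells with low CD80 and MHC class II (mTEClo), cortical thymic epithelial cells (cTEC) and fibroblasts. All came from male wild-type C57BL/6J mice at 1, 3 or 6 months of age, and no treatment or transgene is named for any group. The labels give 1 mouse for each sample and the design text gives 2 mice for each age, so that samples of an age may share animals and p-values then measure the spread among samples of those animals.

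Batf3 is an AP-1 family transcription factor and Irf8 is an interferon regulatory factor. In dendritic cells they bind DNA together, and mice without either gene lack cDC1. Id2 binds E proteins and keeps them from DNA, which favours conventional over plasmacytoid DC. Wdfy4 is a BEACH domain protein that cDC1 need to present antigen of dead cells on MHC class I. Itgae encodes CD103, the alpha chain that pairs with Itgb7 to bind E-cadherin, and Cadm1 is an adhesion molecule of the immunoglobulin superfamily that binds Crtam on lymphocytes. In the thymus, cDC1 lie mainly in the medulla and take up antigen made by medullary epithelial cells, while Sirpa marks the other conventional lineage, cDC2.

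The promoters of Batf3, Irf8, Id2 and Wdfy4 are shown because these 4 of the 6 genes had a promoter window available. Each window runs from 250 bases before to 50 bases after a gene's start, as RefSeq gives it for the mouse build GRCm38.p6. The Batf3 window is chr1:191098164-191098463 on the plus strand, and the upstream of the 2 Irf8 windows is chr8:120736108-120736407 on the plus strand. The Id2 window is chr12:25096043-25096342 on the minus strand, and the Wdfy4 window is chr14:33185017-33185316 on the minus strand. The Wdfy4 window belongs to a start inside the gene's span, whose outer end on that strand is 33193855. Capitals mark matches on either strand to the E-box letters CANNTG, to CCAAT or to TATAAA, and the sequences are written 5′ to 3′ along the strand of the gene.
Batf3: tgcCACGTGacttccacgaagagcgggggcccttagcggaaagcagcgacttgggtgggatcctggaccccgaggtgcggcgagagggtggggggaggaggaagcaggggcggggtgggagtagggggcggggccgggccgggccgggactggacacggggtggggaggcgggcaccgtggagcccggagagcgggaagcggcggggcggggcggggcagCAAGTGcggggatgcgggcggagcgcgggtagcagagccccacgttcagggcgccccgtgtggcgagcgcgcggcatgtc
Irf8: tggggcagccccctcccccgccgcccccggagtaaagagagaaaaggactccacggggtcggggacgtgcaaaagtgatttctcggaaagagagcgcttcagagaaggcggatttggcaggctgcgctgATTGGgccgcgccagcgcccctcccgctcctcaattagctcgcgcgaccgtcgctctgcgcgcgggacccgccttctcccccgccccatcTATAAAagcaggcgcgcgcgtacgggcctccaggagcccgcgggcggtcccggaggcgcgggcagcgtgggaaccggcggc
Id2: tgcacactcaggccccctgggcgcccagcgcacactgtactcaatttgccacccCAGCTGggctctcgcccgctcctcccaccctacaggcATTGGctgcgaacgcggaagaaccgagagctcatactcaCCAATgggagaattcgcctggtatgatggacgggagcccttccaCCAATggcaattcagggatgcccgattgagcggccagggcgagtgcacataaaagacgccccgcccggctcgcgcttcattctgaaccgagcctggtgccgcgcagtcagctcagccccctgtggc
Wdfy4: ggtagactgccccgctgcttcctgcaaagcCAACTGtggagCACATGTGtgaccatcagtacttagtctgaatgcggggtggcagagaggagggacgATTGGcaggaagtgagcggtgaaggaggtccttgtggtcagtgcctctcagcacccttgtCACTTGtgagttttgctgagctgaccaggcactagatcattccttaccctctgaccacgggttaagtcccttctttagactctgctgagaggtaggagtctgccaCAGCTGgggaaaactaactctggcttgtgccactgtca

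The windows of Batf3 and Irf8 were rich in G and C. The Batf3 window had a GC content of 75.7%, above that of 96.7% of the 32851 windows of all genes, whose median was 52.7%. The Irf8 window shown had 70.0%, the Id2 window 63.3% and the Wdfy4 window 54.3%. The AP-1 letters TGANTCA were found in none of the 5 windows of these genes, and 7.81% of all windows hold them. The paired IRF letters (GAAA, any 2 bases, GAAA) and the ETS-IRF letters (GGAA, any 2 bases, GAAA) were found in none of the 5 either, and 3.44% and 2.72% of all windows hold them. The GC box letters GGGCGG occurred 5 times in the Batf3 window, 3 times in the Irf8 window shown and 1 time in the Id2 window, and 35.7% of all windows hold at least 1. E-box letters occurred 2 times for Batf3, 1 time for Id2 and 5 times for Wdfy4, and 72.3% of all windows hold them. CCAAT occurred 3 times for Id2, and 1 time each for Wdfy4 and the Irf8 window shown (37.4% of all windows), and TATAAA 1 time, in the Irf8 window shown (13.6% of all windows). These are matches of letters in a fixed window.

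The sorted populations carried the genes that define them. Itgax, which encodes CD11c, had mean log2 signals of 10.74 in Sirpa- DC against 11.16 in Sirpa+ DC, and between 5.29 and 5.90 in the other populations. Foxn1, the epithelial transcription factor of the thymus, had means of 9.64 in mTEChi, 8.40 in mTEClo and 9.37 in cTEC, and Pdgfra, a fibroblast receptor, averaged 10.62 ± 1.34 (SD, n = 6) in fibroblasts. Epcam, an epithelial surface protein, had signal outside the epithelium too, with means of 8.46 in Sirpa- DC, 10.13 in Sirpa+ DC and 7.02 in fibroblasts. Fibroblast arrays also carried thymocyte markers, with means over that list of 8.81 to 11.13, where the next highest population, cTEC, gave 6.72 to 8.58. The array medians lay between 5.61 and 5.75 on the log2 scale, and precision is limited by the number of arrays. The 3′ minus 5′ log2 signal of control probe sets, a measure of RNA length, ran between 1.41 and 3.15 over the arrays, with 1.41 to 1.85 in Sirpa- DC, 1.41 to 2.09 in Sirpa+ DC and 1.72 to 3.15 in fibroblasts.

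Batf3 (chromosome 1, 191098414 to 191108943, GRCm38.p6) had high signal in both dendritic populations. Its lowest, median and highest log2 signals were 10.33, 10.51 and 10.82 in Sirpa- DC, and 9.90, 10.20 and 10.52 in Sirpa+ DC. The ranges overlapped, and 3 of the 6 Sirpa- DC arrays lay above every Sirpa+ DC array. mTEChi gave 6.75, 6.86 and 7.27, against 4.88, 5.27 and 5.55 in mTEClo, so that every mTEChi array lay above every mTEClo array. cTEC gave 4.65, 5.01 and 5.15 and fibroblasts 5.0, 5.20 and 5.56. Ordered by mean, Sirpa- DC stood above Sirpa+ DC by 0.36 ± 0.13 (difference in log2 signal ± SE; adjusted p = 0.051), Sirpa+ DC above mTEChi by 3.25, and mTEChi above mTEClo by 1.67. The last 3 populations, mTEClo, fibroblasts and cTEC, did not differ beyond their spread from their neighbours (adjusted p = 0.935 and 0.0666).

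Irf8 (chromosome 8, 120736358 to 120756694) had signal well above the median of all values in every population. Sirpa- DC gave 12.49, 12.77 and 13.03 as lowest, median and highest, and Sirpa+ DC 11, 11.45 and 11.90, so that the 2 dendritic populations did not overlap. mTEChi gave 11.19, 11.64 and 12, mTEClo 9.48, 10.21 and 10.62, cTEC 9.96, 10.20 and 11.20, and fibroblasts 7.88, 9.40 and 10.48. The mTEChi arrays overlapped the Sirpa+ DC arrays over nearly their whole range. Sirpa- DC stood above mTEChi by 1.20 ± 0.19 (adjusted p = 3.91e-06). The next pair, mTEChi and Sirpa+ DC, differed by 0.12 ± 0.19 (adjusted p = 0.574). Sirpa+ DC stood above cTEC by 1.06, cTEC and mTEClo did not differ beyond their spread (adjusted p = 0.348), and mTEClo stood above fibroblasts by 0.72 (adjusted p = 0.002).

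Id2 (chromosome 12, 25093799 to 25096092) was high in dendritic cells and in mTEClo. The lowest, median and highest signals were 11.34, 11.80 and 12.30 in Sirpa- DC against 10.83, 11.03 and 11.39 in Sirpa+ DC. mTEChi gave 8.14, 8.70 and 9.80, and mTEClo 9.22, 10.71 and 10.87. cTEC gave 8.44, 9.40 and 10.77, and fibroblasts 8.03, 8.56 and 9.24. The cTEC values were the widest, with both 6-month arrays above the other 4. Each step of the order from Sirpa- DC through Sirpa+ DC, mTEClo and cTEC to mTEChi passed the test, by 0.72, 0.74, 0.80 and 0.80, and mTEChi and fibroblasts did not differ beyond their spread (adjusted p = 0.513). Its order among the epithelial cells, with mTEClo above mTEChi, was the opposite of that of Batf3 and Irf8.

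Wdfy4 (chromosome 14, 32959547 to 33193855) gave 11.44, 11.65 and 11.90 in Sirpa- DC against 10.78, 11.30 and 12.06 in Sirpa+ DC as lowest, median and highest. The highest of all Wdfy4 values was a Sirpa+ DC array at 3 months. mTEChi gave 7.29, 7.95 and 8.92 and mTEClo 5.18, 5.46 and 5.86, with no overlap. cTEC gave 5.46, 5.58 and 6.07, and fibroblasts 5.37, 6.58 and 7.26. The dendritic populations differed by 0.36 ± 0.22 (adjusted p = 0.299), Sirpa+ DC stood above mTEChi by 3.22, mTEChi above fibroblasts by 1.64 and fibroblasts above cTEC by 0.75 (adjusted p = 0.00563). cTEC and mTEClo did not differ beyond their spread (adjusted p = 0.546).

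Itgae (chromosome 11, 73090505 to 73147449) was bright in dendritic cells and near or below the median of all values, 5.66, elsewhere. Sirpa- DC gave 10.45, 10.77 and 11.04 and Sirpa+ DC 8.26, 9.73 and 10.72. The ranges overlapped, and within Sirpa+ DC the 1-month arrays were the lowest and the 3-month arrays the highest. mTEChi gave 5.12, 5.45 and 5.90, mTEClo 4.49, 4.95 and 5.11, cTEC 4.77, 5.15 and 5.69, and fibroblasts 4.66, 5.47 and 6.15. Sirpa+ DC stood above mTEChi by 4.19 ± 0.19, and no neighbours among mTEChi, fibroblasts, cTEC and mTEClo differed beyond their spread (adjusted p = 0.981, 0.221 and 0.298).

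Cadm1 (chromosome 9, 47530170 to 47862280) gave 10.54, 10.70 and 11.07 in Sirpa- DC against 8.34, 9.42 and 9.51 in Sirpa+ DC, with no overlap. mTEChi gave 9.15, 9.25 and 9.27, mTEClo 8.98, 9.26 and 9.64, and cTEC 9.41, 9.50 and 9.86. Sirpa+ DC thus lay among the epithelial cells for this gene. Fibroblasts gave 5.61, 7.26 and 7.88, below every other population. Sirpa- DC stood above cTEC by 1.17 ± 0.23 (adjusted p = 9.49e-05), no neighbours from cTEC through mTEClo and mTEChi to Sirpa+ DC differed beyond their spread (adjusted p = 0.363, 0.87 and 0.901), and Sirpa+ DC stood above fibroblasts by 2.03. Over the 6 genes and 15 pairs of populations, 71 of 90 differences had an adjusted p under 0.05, beside 56.8% of the differences of all genes tested.

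**Figure D1:**
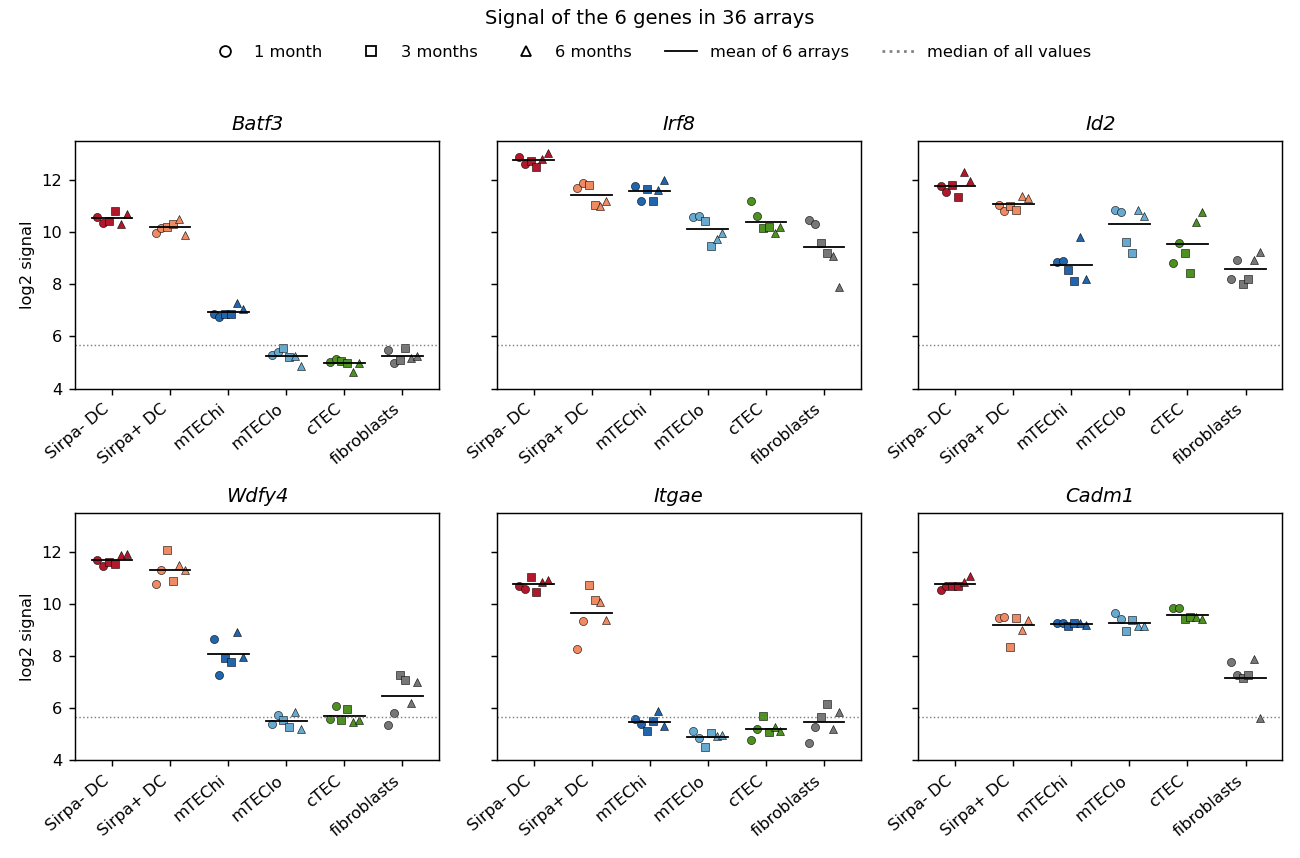
Log2 signal of each gene (1 panel per gene) in every array, by population from Sirpa- DC at the left to fibroblasts at the right; marker shape gives the age, the bar is the mean of 6 arrays and the dotted line the median of all values (5.66). Irf8 and Cadm1 separate Sirpa- DC from Sirpa+ DC with no overlap, and Batf3, Irf8, Wdfy4 and, narrowly, Itgae separate mTEChi from mTEClo.

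The comparison of Sirpa- DC with Sirpa+ DC asks which genes mark the 2 conventional lineages of the thymus. Irf8, Itgae and Cadm1 were higher in Sirpa- DC, while Batf3 and Wdfy4 had high signal in both. A gene was called where its adjusted p was under 0.05 and the difference at least 2-fold, and 3 of the 6 genes were called higher and 0 lower, beside 1.5% of all genes higher and 3.87% lower. As known cDC1 genes, chosen with earlier results of these data known, the 6 are described by these counts and not tested as a set. At an unadjusted p under 0.05 (limma), 5 of the 6 were higher and 0 lower, beside 2091 higher and 2266 lower of the 14495 genes tested. The median difference of the 6 genes was 0.91 on the log2 scale, and that of all genes tested was 0.

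Irf8 was higher in Sirpa- DC by 1.32 ± 0.19 (95% interval 0.94 to 1.71; 2.5-fold; adjusted p = 5.8e-06). Cadm1 was higher by 1.56 ± 0.23 (1.08 to 2.03; 2.94-fold; adjusted p = 1.12e-05). Irf8 and Cadm1 were the 2 of the 6 genes of which every Sirpa- DC array lay above every Sirpa+ DC array, which 5.14% of all genes did. Itgae was higher by 1.10 ± 0.19 (0.70 to 1.5; 2.14-fold; adjusted p = 0.000116), with overlapping arrays. The Itgae difference fell under 2-fold when 1 array was left out, with 1.00 without the first Sirpa- DC array at 3 months, 0.92 without the first Sirpa+ DC array at 1 month and 0.99 without the second Sirpa+ DC array at 6 months. It was 0.72 (adjusted p = 0.0403) without the 1-month arrays, an alternative chosen after seeing the data. With the mean of both Itgae probe sets it fell just under 2-fold (adjusted p = 0.000267).

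Batf3, Id2 and Wdfy4 did not pass both limits. Batf3 differed by 0.36 (0.09 to 0.62; 1.28-fold), so that the interval stops short of 2-fold. Wdfy4 differed by 0.36 (-0.10 to 0.82; 1.29-fold). Id2 was higher in Sirpa- DC by 0.72 ± 0.20 (0.30 to 1.14; 1.65-fold; adjusted p = 0.0115), below the 2-fold limit. With no fold limit, 4 of the 6 genes (Irf8, Id2, Itgae and Cadm1) had an adjusted p under 0.05, beside 20.9% of all genes in either direction.

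**Figure D2:**
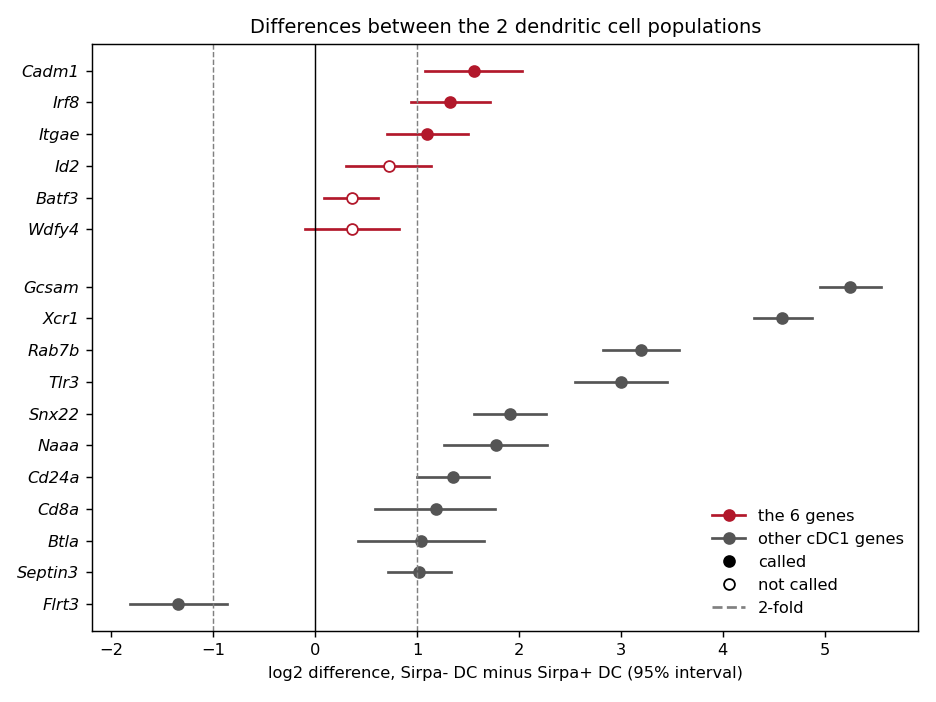
Difference in log2 signal, Sirpa- DC minus Sirpa+ DC, with its 95% interval, for the 6 genes (red) and 11 other cDC1 genes (grey); filled points were called and dashed lines mark 2-fold. Irf8, Itgae and Cadm1 are filled, and Gcsam and Xcr1 lie farthest to the right with differences of 5.25 and 4.58.

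At each age the direction was the same for all 6 genes, and the sizes varied. Irf8 differed by 0.97 at 1 month (adjusted p = 0.0665), 1.17 at 3 months (0.0239) and 1.82 at 6 months (0.000363). Cadm1 differed by 1.12 at 1 month (adjusted p = 0.0946), 1.79 at 3 months (0.0045) and 1.76 at 6 months (0.00451). Itgae differed by 1.85 at 1 month (adjusted p = 0.000475), 0.30 at 3 months (0.771) and 1.14 at 6 months (0.0342). Batf3 differed by 0.39, 0.36 and 0.31 at 1, 3 and 6 months, Id2 by 0.75, 0.63 and 0.78, and Wdfy4 by 0.52, 0.09 and 0.49, none with an adjusted p under 0.05. Of the 6 genes, 1 had an adjusted p under 0.05 at 1 month, 2 at 3 months and 3 at 6 months, beside 8.33%, 7.31% and 7.75% of all genes in either direction at these ages.

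Other genes known from cDC1 also differed between the dendritic populations. Of 11 that were tested, 10 were higher in Sirpa- DC and 1 was lower, with a median difference of 1.77. This list, too, was chosen with earlier results of these data known. Gcsam, a signalling adaptor, averaged 10.49 in Sirpa- DC against 5.24 in Sirpa+ DC (difference 5.25 ± 0.14). Xcr1, the chemokine receptor that defines cDC1, gave 8.80 to 9.89 in Sirpa- DC against 4.31 to 5.08 in Sirpa+ DC, with no overlap (difference 4.58 ± 0.14). Rab7b, a small GTPase of late endosomes, and Tlr3, the receptor for double-stranded RNA, were higher by 3.20 ± 0.18 and 3.00 ± 0.22. The exception was Flrt3, named after its values were seen, with 5.59 in Sirpa- DC against 6.93 in Sirpa+ DC (difference -1.35 ± 0.23). These genes followed the label, and Sirpa itself, by which the cells were sorted, averaged 7.03 in Sirpa- DC against 10.21 in Sirpa+ DC.

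Among 19 regulators of dendritic cell development, 1 was higher in Sirpa- DC and 4 were lower (median difference -0.33). Mycl, a Myc family factor of cDC1, averaged 10.78 in Sirpa- DC against 8.73 in Sirpa+ DC (difference 2.04 ± 0.22). Zeb2, a repressor known to restrain Id2, averaged 6.38 in Sirpa- DC against 9.50 in Sirpa+ DC (difference -3.12 ± 0.32). Irf4, the factor of cDC2, averaged 7.09 in Sirpa- DC against 9.48 in Sirpa+ DC (difference -2.39 ± 0.26), opposite in direction to Irf8. Spib, an ETS factor of plasmacytoid DC, was lower by -2.47 ± 0.24 on the log2 scale.

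Few genes of the families of the 6 genes were called between the dendritic populations, where 1.5% of all genes were higher and 3.87% lower. Shares as low as these leave little to be called in lists this short. Of 9 other AP-1 genes, 0 were higher and 2 lower at the limits used, with 0 higher and 3 lower at an unadjusted p under 0.05 (limma). Maf was lower by -1.84 ± 0.32, and Batf, the closest relative of Batf3, averaged 8.68 in Sirpa- DC against 8.67 in Sirpa+ DC (difference 0.01, 95% interval -0.49 to 0.50). Of 7 other IRF genes 1 was lower, Irf4. Of 6 ID and E protein genes none was called (limma; 1 higher and 2 lower at an unadjusted p under 0.05). Of 9 BEACH genes 1 was higher, Lrba, a vesicle trafficking protein (1.41 ± 0.18). Of 10 integrin partners and the ligand E-cadherin, Itgal was higher by 1.13 ± 0.21 and Cdh1, which encodes E-cadherin, was lower, with means of 6.11 in Sirpa- DC against 9.96 in Sirpa+ DC (difference -3.85 ± 0.31). Itgb7, the partner chain of Itgae, averaged 10.32 in Sirpa- DC against 9.95 in Sirpa+ DC (difference 0.38 ± 0.15; adjusted p = 0.0925). Of 6 CADM and nectin genes none was called (limma; 0 higher and 2 lower at an unadjusted p under 0.05).

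Of 14 cross-presentation genes, 1 was higher in Sirpa- DC, Rab43, a Golgi GTPase needed for cross-presentation by cDC1 (difference 1.01 ± 0.13), and 1 was lower, Cybb, a subunit of the phagocyte oxidase (-3.77 ± 0.44). Of 11 genes of mature dendritic cells none was called (limma; 2 higher and 3 lower at an unadjusted p under 0.05). Of 9 cDC2 markers 7 were lower in Sirpa- DC, among them the lectin Mgl2 (-3.79 ± 0.19). Of 11 macrophage markers 7 were lower, among them the complement gene C1qa (-3.71 ± 0.34), and the mean log2 signal over that list was 6.23 to 8.11 in Sirpa- DC arrays and 8.81 to 9.76 in Sirpa+ DC arrays. Thymocyte markers averaged 5.99 to 7.35 in Sirpa- DC arrays and 6.94 to 8.0 in Sirpa+ DC arrays, with 1 of 13 called lower (Cd4). Of 9 plasmacytoid DC markers 1 was lower, of 8 B cell markers 2, of 11 epithelial markers 1 (Epcam), of 6 endothelial markers 1, and of 4 natural killer and innate lymphoid markers 1, with none higher in these lists. Of 9 fibroblast markers none was called (limma; 0 higher and 1 lower at an unadjusted p under 0.05). The part of these other cells in the differences of the 6 genes was not tested. In bulk samples, fewer cells of a type and less RNA per cell cannot be told apart.

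All 6 genes were higher in Sirpa- DC than in the mean of the 4 other populations, and 5 were in Sirpa+ DC. All 6 were higher in Sirpa- DC, beside 8.22% of all genes higher and 15.6% lower. None of the 6 overlapped the other populations, and the share of all genes without overlap was not counted. Itgae was higher by 5.50 ± 0.15 on the log2 scale, Wdfy4 by 5.24 ± 0.18 and Batf3 by 4.93 ± 0.10. Signals of these 3 genes lay near or below the median of all values in several of the other populations, where background limits how low a signal can read, so the sizes are not ranked. Id2 stood 5.63-fold higher (2.49 ± 0.16), Irf8 5.24-fold (2.39 ± 0.15) and Cadm1 3.83-fold (1.94 ± 0.18), with an adjusted p of at most 8.03e-10 for each of the 6 genes. The median difference of the 6 genes was 3.71 and that of all genes tested -0.04.

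In Sirpa+ DC 5 of the 6 genes were higher than in the other populations, beside 8.04% of all genes higher and 13.7% lower. Wdfy4 was higher by 4.87 ± 0.18 on the log2 scale, Batf3 by 4.58 ± 0.10 and Itgae by 4.40 ± 0.15, under the same limit from background. Id2 stood 3.42-fold higher. Irf8 stood 2.1-fold higher (1.07 ± 0.15; adjusted p = 6.58e-07), with some arrays of other populations above some of Sirpa+ DC. That difference was under 2-fold without the first Sirpa+ DC array at 3 months (0.94), and, as an alternative chosen after seeing the data, without the fibroblast arrays (0.75). Cadm1 was the gene not called, with a difference of 0.38 ± 0.18 (adjusted p = 0.0697). Both comparisons use the same 24 arrays of the 4 other populations.

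The relatives of the 6 genes differed between dendritic cells and the rest in their own ways. Irf5 stood above the other populations by 3.33 ± 0.11 in Sirpa- DC against 2.82 in Sirpa+ DC, while Irf4 did so by 2.34 ± 0.21 in Sirpa+ DC and had a difference of -0.05 in Sirpa- DC. Id4 differed by -5.32 in Sirpa- DC against -5.28 in Sirpa+ DC, and Id3 by -4.11 and -3.55, so that both ID genes moved opposite to Id2. Batf was higher by 1.38 in Sirpa- DC against 1.37 in Sirpa+ DC. Itgb7 was higher by 3.27 in Sirpa- DC against 2.90 in Sirpa+ DC, the same direction as its partner Itgae. The BEACH gene Lyst, which acts in lysosome-related organelles, was higher by 2.13 in Sirpa- DC against 2.29 in Sirpa+ DC, whereas Nbea, a neuronal BEACH protein, differed by -3.57 and -3.89. Nectin3 differed by -4.86 in Sirpa- DC against -4.89 in Sirpa+ DC.

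The comparison of mTEChi with mTEClo asks what the 2 states of the medullary epithelium differ in. Batf3, Irf8 and Wdfy4 rose in mTEChi and Id2 fell. Of the 6 genes 3 were called higher and 1 lower, beside 11.8% of all genes higher and 7.81% lower, with a median difference of 1.00 for the 6 genes and -0.04 for all genes. Batf3 was higher by 1.67 ± 0.13 (3.18-fold; adjusted p = 4.71e-11), Irf8 by 1.43 ± 0.19 (2.7-fold; adjusted p = 3.96e-07) and Wdfy4 by 2.6 ± 0.22 (6.05-fold; adjusted p = 3.37e-10). For these 3 genes, and narrowly for Itgae (lowest 5.12 against highest 5.11), every mTEChi array lay above every mTEClo array. The share of all genes that did so was not counted. Id2 was 3.02-fold lower in mTEChi (-1.59 ± 0.20; adjusted p = 3e-07), with overlapping arrays. Itgae differed by 0.57 ± 0.19 (adjusted p = 0.0156), under the 2-fold limit and near the median of all values in both populations. Its other probe set differed by 1.11 ± 0.20 (adjusted p = 5.83e-05), past both limits, with means of 5.62 in mTEChi and 4.5 in mTEClo. Whether Itgae is called here thus depends on the probe set. Cadm1 differed by -0.05 ± 0.23 (adjusted p = 0.87).

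The 4 called genes had an adjusted p under 0.05 at each age in the same direction, beside 32.5%, 34.2% and 42.7% of all genes in either direction at 1, 3 and 6 months. These 4 were picked by the mean over the same arrays, so their calls by age are no separate support. The shares cover all genes, not genes picked in that way. Batf3 differed by 1.44, 1.48 and 2.09 at 1, 3 and 6 months, Irf8 by 0.88, 1.45 and 1.96, and Wdfy4 by 2.41, 2.47 and 2.92. Id2 differed by -1.95, -1.08 and -1.75 at these ages. The differences at 6 months were the widest for Batf3, Irf8 and Wdfy4, and whether the ages differ was not tested.

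Among relatives of the 6 genes, Irf4 rose in mTEChi by 2.28 ± 0.26 and Irf7, the factor of the interferon response, fell by 2.13 on the log2 scale, with 2 higher and 2 lower of 7 IRF genes. Of 6 ID and E protein genes 4 were lower, among them Id1 (-3.06 ± 0.18) and Id3 (-2.93 ± 0.22), the same direction as Id2. Of 9 AP-1 genes 1 was higher and 2 lower, with Batf higher by 1.03 ± 0.24 and Fosb lower by -1.08 ± 0.28. Of 9 BEACH genes 1 was lower, Wdfy3, a relative of Wdfy4 (-1.55 ± 0.24). Of 10 integrin genes 2 were higher, Itgal (2.14 ± 0.21) and Itgb2 (1.31 ± 0.24), and 1 was lower. Of 6 CADM and nectin genes 1 was higher, Nectin4 (1.34 ± 0.18), and 1 lower, Cadm4 (-2.27 ± 0.13).

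Markers of other cells also differed between mTEChi and mTEClo. Of 11 macrophage markers 6 were higher in mTEChi, with list means of 6.46 to 6.78 in mTEChi arrays and 5.36 to 5.57 in mTEClo arrays. Adgre1, a surface receptor of macrophages, gave 7.64 to 8.82 in mTEChi and 5.63 to 7.08 in mTEClo, and its range in Sirpa- DC was 7.37 to 8.38. Of 8 B cell markers 3 were higher in mTEChi (list means 7.15 to 7.46 in mTEChi and 6.12 to 6.74 in mTEClo), of 4 natural killer and innate lymphoid markers 2 (6.50 to 6.82 and 4.78 to 5.47), and of 9 cDC2 markers 1 (5.71 to 5.98 and 5.06 to 5.51). Of 11 genes of mature dendritic cells 7 were higher and 1 lower, with list means of 9.25 to 10.05 in mTEChi and 7.45 to 8.20 in mTEClo, where Sirpa- DC gave 10.21 to 10.54. Their part in the differences of Batf3, Irf8 and Wdfy4 was not tested.

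Of the defining markers of dendritic cells, Xcr1 and Itgax were low in mTEChi and Flt3 was not. Xcr1 gave 3.62 to 4.29 in mTEChi and 3.75 to 3.93 in mTEClo, below the median of all values, where Sirpa- DC gave 8.80 to 9.89. Itgax gave 5.71 to 6.22 in mTEChi and 5.17 to 5.97 in mTEClo, where Sirpa- DC gave 10.42 to 11.11. Flt3, the cytokine receptor of dendritic cell precursors, gave 7.15 to 8.50 in mTEChi and 6.25 to 6.88 in mTEClo, where Sirpa- DC gave 11.35 to 11.92. The Flt3 arrays of mTEChi and mTEClo did not overlap (difference 1.00 ± 0.16; adjusted p = 9.85e-06, just under 2-fold). Of 11 other cDC1 genes, 1 was higher in mTEChi and 2 lower. Batf3 and Flt3 in mTEChi thus lay between mTEClo and the dendritic cells, while Xcr1 lay at the level of mTEClo. The 5 genes whose signals over all arrays were most like Batf3 all had higher means in mTEChi than in mTEClo. They were Aif1 (6.34 against 4.89), Tnni2 (7.06 against 6.22), Napsa (6.99 against 5.16), Cd244a (5.06 against 3.72) and Flt3 (7.72 against 6.72). That likeness uses these same arrays, and the part of dendritic cells in the Batf3 difference was not tested.

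**Figure D3:**
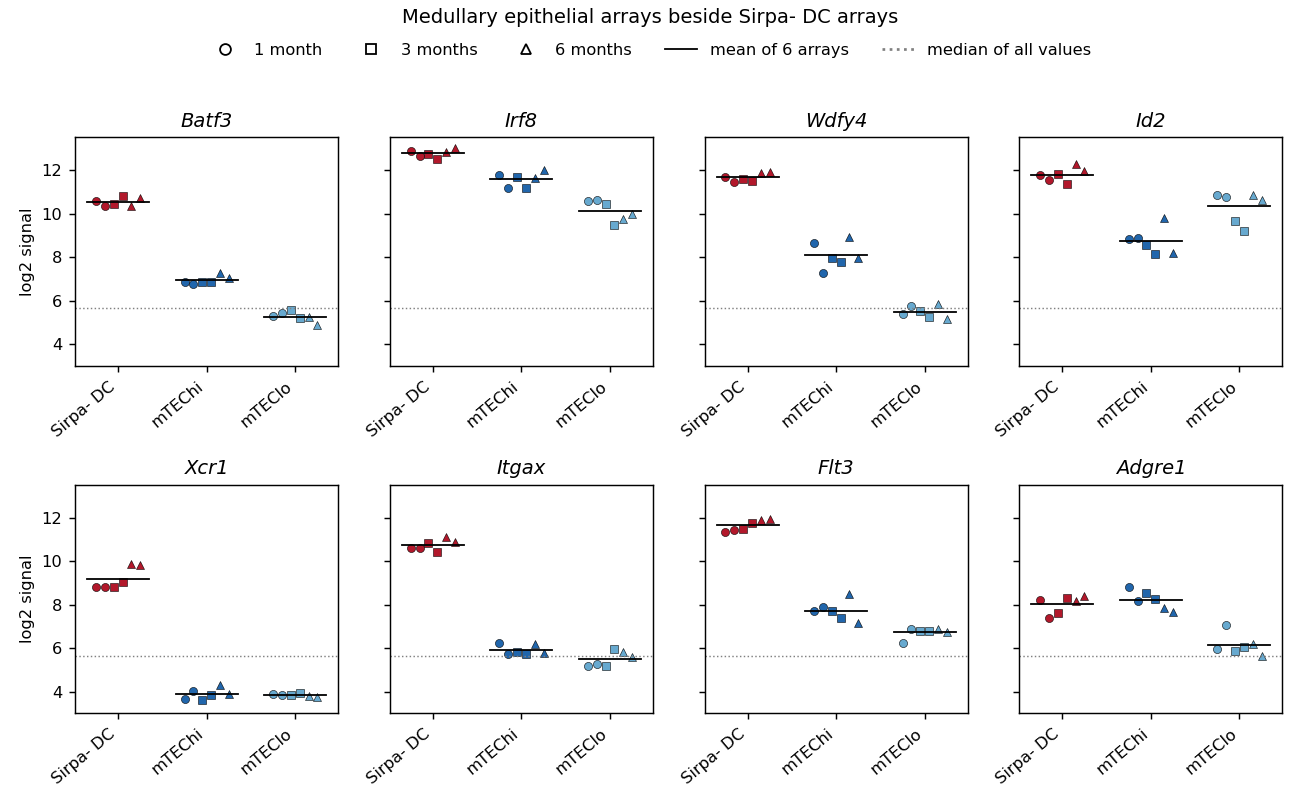
Log2 signal of 8 genes (1 panel per gene) in every array of Sirpa- DC, mTEChi and mTEClo, from left to right. Batf3, Irf8 and Wdfy4 are higher in every mTEChi array than in every mTEClo array, Id2 is lower on average, the dendritic markers Xcr1 and Itgax lie between 3.62 and 6.22 in mTEChi, and Flt3 between 7.15 and 8.50.

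Batf3, Irf8 and Wdfy4 were lower in cTEC than in mTEChi, and not than in mTEClo. Against mTEChi Batf3 differed by -1.97 ± 0.13 (adjusted p = 1.34e-12) and Wdfy4 by -2.39 ± 0.22 (adjusted p = 9.94e-10), while against mTEClo Batf3 differed by -0.30 ± 0.13 (adjusted p = 0.0903) and Wdfy4 by 0.20 ± 0.22 (adjusted p = 0.546). Against the mean of the 2 medullary populations, 2 of the 6 genes were lower in cTEC, beside 8.24% of all genes. Batf3 was 2.19-fold lower (-1.13 ± 0.11; adjusted p = 4.94e-09), its arrays overlapping those of mTEClo. Wdfy4 was 2.13-fold lower (-1.09 ± 0.19; adjusted p = 3.6e-05), and its difference was under 2-fold without the first mTEChi array at 1 month (-0.98) or with the mean of both its probe sets (-0.57). Irf8 differed by -0.46 (adjusted p = 0.0188) and Cadm1 by 0.33 (adjusted p = 0.173), and neither was called. Against mTEChi alone Irf8 differed by -1.18 ± 0.19 (adjusted p = 5.79e-06), and against mTEClo alone by 0.25 ± 0.19 (adjusted p = 0.348).

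Against the mean of the 3 epithelial populations, 2 of the 6 genes were lower in fibroblasts, beside 13.7% of all genes. Cadm1 was 4.61-fold lower (-2.21 ± 0.19; adjusted p = 1.56e-10), with no overlap. Irf8 was 2.43-fold lower (-1.28 ± 0.15; adjusted p = 5.86e-08). Id2 differed by -0.95 ± 0.17 (adjusted p = 1.88e-05), just under 2-fold, and reached the limit without the second mTEChi array at 6 months (-1.04), the second fibroblast array at 1 month (-1.08) or the second fibroblast array at 6 months (-1.01). Batf3 differed by -0.47 (adjusted p = 0.000345), Wdfy4 by 0.02 and Itgae by 0.29. Thymocyte markers averaged 8.81 to 11.13 in fibroblast arrays, 6.72 to 8.58 in cTEC, 5.69 to 7.07 in mTEClo and 5.99 to 6.47 in mTEChi. The part of thymocytes in these differences was not tested.

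The age differences called among the 6 genes lay in Sirpa+ DC, mTEClo, cTEC and fibroblasts. Over 6 genes and 6 populations, 4 of 36 differences between 3 months and 1 month had an adjusted p under 0.05 and 3 of 36 between 6 months and 1 month, beside 4.66% and 10.3% of all differences. In Sirpa- DC none of the 6 genes was called at 3 months, beside 0.0345% of all genes, or at 6 months, beside 0.904%, and in mTEChi none was called either, beside 0% and 9.51% (limma; 0 at an unadjusted p under 0.05 in each). Shares as low as those of Sirpa- DC leave little to be called in any 6 genes. Among the probe sets not used, 1 of Cadm1 was higher in Sirpa- DC at 6 months (0.74; adjusted p = 0.0497), and the other of Irf8 was higher in mTEChi at 6 months (1.02; adjusted p = 0.00719). In the mean of the 2 dendritic populations none was called at 3 months, beside 0.517% of all genes, nor at 6 months, beside 7.98% (limma; 1 of 6 at an unadjusted p under 0.05 at each age, Itgae). That Itgae difference was 0.88 ± 0.24 at 3 months (adjusted p = 0.127) and 0.58 at 6 months (adjusted p = 0.138), and without the second Sirpa+ DC array at 1 month it was 1.14 (adjusted p = 0.0406) and 0.85 (adjusted p = 0.0417).

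By its brightest probe set and in the fit of all groups, Itgae in Sirpa+ DC was the 1 gene of the 6 called with age in a dendritic population, where 0.331% of all genes were called at 3 months. Its 2 arrays gave 8.26 and 9.33 at 1 month, 10.72 and 10.17 at 3 months, and 10.06 and 9.40 at 6 months. In Sirpa- DC the arrays gave 10.70 and 10.59 at 1 month, 11.04 and 10.45 at 3 months, and 10.84 and 10.90 at 6 months. The Sirpa+ DC arrays at 1 month lay below those at 3 months, while the Sirpa- DC arrays overlapped. The rise in Sirpa+ DC at 3 months was 1.65 ± 0.34 (95% interval 0.96 to 2.35; adjusted p = 0.0249). It lost its call without the first Sirpa+ DC array at 1 month (1.12) or the first at 3 months (1.38). The call was also lost with the mean of both probe sets (1.22, adjusted p = 0.13) and with array weights (adjusted p = 0.0839). The same held with only the Sirpa+ DC arrays at 1 and 3 months fitted (adjusted p = 0.076). With only the Sirpa+ DC arrays at 1 and 6 months fitted, Irf8 was lower at 6 months (-0.69, adjusted p = 0.0327). With array weights Itgae in Sirpa+ DC was higher at 6 months (0.94, adjusted p = 0.027). The test of whether Itgae moved otherwise in Sirpa- DC than in Sirpa+ DC gave -1.55 ± 0.48 (adjusted p = 0.999; unadjusted p = 0.00338). None of the 6 genes passed this test at 3 months, beside 0.0069% of all genes, or at 6 months, beside 0.0138% (limma; 1 and 0 of 6 at an unadjusted p under 0.05). Other lists moved with age in Sirpa+ DC. Natural killer and innate lymphoid markers averaged 5.33, 6.30 and 5.41 at 1, 3 and 6 months, with both 3-month arrays (6.04 and 6.57) above the other 4, as for Itgae. Plasmacytoid DC markers averaged 8.43, 7.69 and 7.98, thymocyte markers 7.77, 7.32 and 7.06, macrophage markers 9.60, 9.15 and 9.31, and other cDC1 genes 8.13, 8.01 and 8.11. Their part in the result was not tested.

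In epithelial cells Id2 was the gene called with age by its brightest probe set in the fit of all groups. The other Irf8 probe set was lower in mTEClo at 3 months (-1.16, adjusted p = 0.0137). The brighter Irf8 probe set was lower there at 6 months (-0.74) with array weights (adjusted p = 0.022). It was also lower with only the mTEClo arrays at 1 and 6 months fitted (adjusted p = 0.0107). In mTEClo Id2 gave 10.87 and 10.77 at 1 month, 9.64 and 9.22 at 3 months, and 10.86 and 10.64 at 6 months. Its 3-month arrays thus lay below the other 4. Its fall at 3 months was -1.39 ± 0.35 (adjusted p = 0.040), where 1.77% of all genes were called. That call was lost in 9 of the 36 fits that left out 1 array, with adjusted p = 0.207 without the first and 0.215 without the second mTEClo array at 1 month, and 0.454 without the second at 3 months. It was also lost with the mean of all Id2 probe sets (-1.05; adjusted p = 0.129) and with equal array medians (adjusted p = 0.0545). In cTEC Id2 gave 8.81 and 9.60 at 1 month, 9.19 and 8.44 at 3 months, and 10.41 and 10.77 at 6 months. The rise at 6 months was 1.38 ± 0.35 (adjusted p = 0.0184), where 6.45% of all genes were called. Its call was lost without the first cTEC array at 1 month (0.99) or the second at 6 months (1.20). The call was also lost with only the cTEC arrays at 1 and 6 months fitted (adjusted p = 0.0823). Thymocyte markers averaged 8.41, 7.10 and 7.98 in cTEC at 1, 3 and 6 months, and 6.58, 5.71 and 5.97 in mTEClo. The 3′ minus 5′ signal was 2.53, 1.99 and 2.00 in cTEC, with the 1-month arrays above the other 4, and 2.67, 2.48 and 1.91 in mTEClo, where the 3-month arrays ran between 1.90 and 3.07. The part of these in the Id2 differences was not tested.

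In fibroblasts Irf8 fell with age, and the brighter Wdfy4 probe set rose. Irf8 gave 10.48 and 10.30 at 1 month, 9.60 and 9.20 at 3 months, and 9.07 and 7.88 at 6 months. Its arrays did not overlap between ages, with differences from 1 month of -0.99 ± 0.32 at 3 months (adjusted p = 0.0322) and -1.91 ± 0.32 at 6 months (adjusted p = 9.7e-05). The 3-month call was lost without either fibroblast array at 1 month (-0.9 and -1.08) or the second at 3 months (-0.79). The 6-month call was lost with only the fibroblast arrays at 1 and 6 months fitted (adjusted p = 0.102). Wdfy4 gave 5.37 and 5.83 at 1 month, 7.26 and 7.08 at 3 months, and 6.18 and 6.99 at 6 months, differences of 1.57 ± 0.39 (adjusted p = 0.00504) and 0.98 (adjusted p = 0.0491). The first was lost without the first fibroblast array at 1 month (1.35; adjusted p = 0.0872) and the second in 26 of the 36 fits that left out 1 array and in 7 of 11 other alternatives. The other Wdfy4 probe set, dim in all populations, differed by -0.04 at 3 months and -0.23 at 6 months, and the mean of both by 0.76, with its call kept, and 0.38 (adjusted p = 0.124). Itgae differed by 0.94 at 3 months (adjusted p = 0.0507) and was called in 17 of those fits, and Cadm1 differed by -0.77 at 6 months (adjusted p = 0.138), and by -1.90 (adjusted p = 1.3e-05) without the first fibroblast array at 6 months. Of all genes, 20.4% were called in fibroblasts at 3 months and 36.2% at 6 months. Fibroblast markers averaged 12.83, 11.70 and 10.62 there at 1, 3 and 6 months and thymocyte markers 9.59, 10.37 and 10.95, and the 3′ minus 5′ signal was 2.76, 2.11 and 1.79. The part of these in the age differences of Irf8 and Wdfy4 was not tested.

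**Figure D4:**
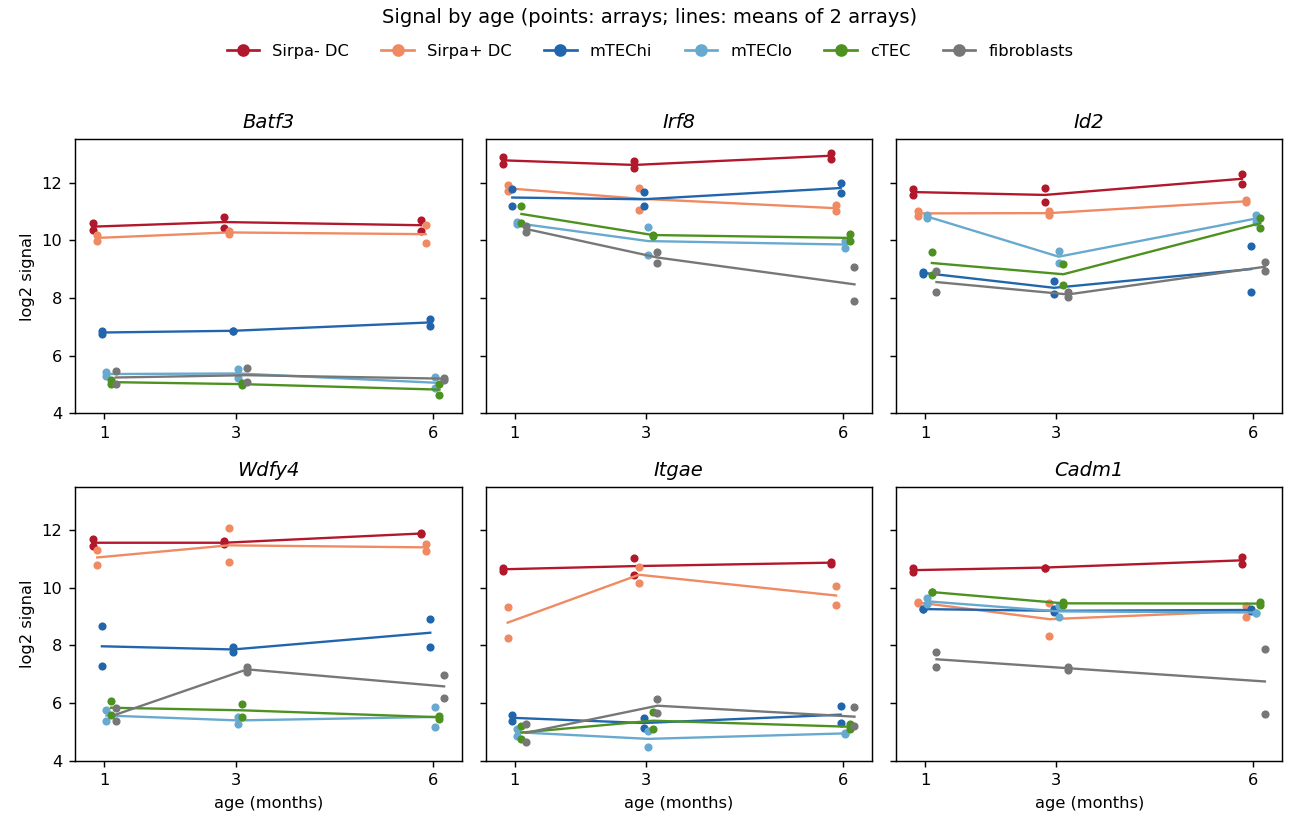
Log2 signal of the 6 genes (1 panel per gene) against age in months (1, 3 and 6), coloured by population; points are arrays and lines join the means of 2 arrays. The Itgae line of Sirpa+ DC is lowest at 1 month (8.26 and 9.33), and the Irf8 line of fibroblasts descends to 9.07 and 7.88 at 6 months.

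The 6 genes had 14 probe sets between them, and the other 8 mostly moved as the brightest did. The other Irf8 probe set was higher in Sirpa- DC by 1.77 ± 0.14 (adjusted p = 5.91e-10 over 25600 probe sets) and in mTEChi by 1.74 ± 0.14. The other 3 Cadm1 probe sets were higher in Sirpa- DC by 1.5 ± 0.27, 2.04 ± 0.31 and 1.04 ± 0.12. The other Itgae probe set was higher in Sirpa- DC by 0.89 ± 0.20 (adjusted p = 0.00208), under 2-fold, and its difference in Sirpa+ DC between 3 months and 1 month was 0.79 (adjusted p = 0.592). The other 2 Id2 probe sets were lower in mTEChi by -1.84 and -2.62 on the log2 scale, and differed between 3 months and 1 month in mTEClo by -1.10 (adjusted p = 0.241) and -0.66 (adjusted p = 0.58). The other Wdfy4 probe set was dim, with a mean of 5.54, and differed by -0.14 (adjusted p = 0.446) between mTEChi and mTEClo, so that the Wdfy4 differences rest on 1 probe set, as those of Batf3 do.

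**Figure D5:**
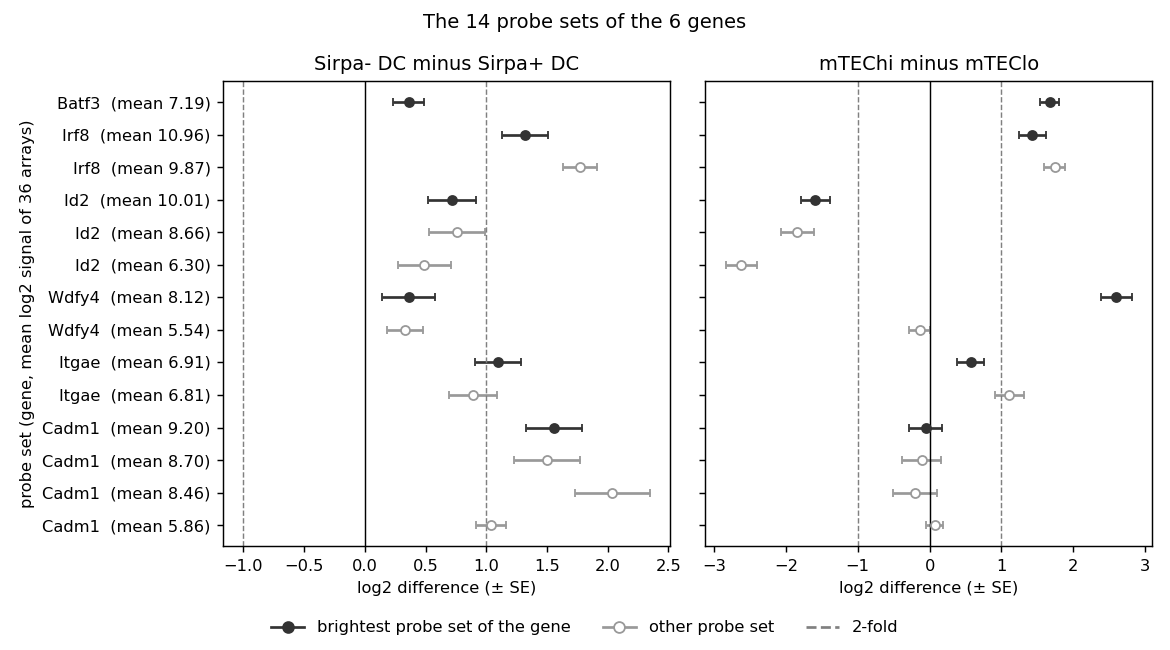
Difference in log2 signal with its SE for each of the 14 probe sets, Sirpa- DC minus Sirpa+ DC at the left and mTEChi minus mTEClo at the right; filled points are the brightest probe set of each gene. The probe sets of a gene point the same way, except those of Wdfy4 and Cadm1 at the right, where the second Wdfy4 probe set lies at -0.14.

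Across the 36 arrays Batf3, Wdfy4 and Itgae varied together, as genes that are high in the 12 dendritic arrays and lower elsewhere. Batf3 and Wdfy4 were intermediate in mTEChi, with means of 6.94 and 8.09. Pearson's r, given as a description since arrays of a population share their cell type, was 0.979 between Batf3 and Wdfy4, 0.951 between Batf3 and Itgae and 0.946 between Wdfy4 and Itgae. It was 0.789 between Batf3 and Irf8, 0.771 between Irf8 and Cadm1, and lowest between Wdfy4 and Cadm1, at 0.425. Within the 12 dendritic arrays the order was another: r was 0.838 between Irf8 and Cadm1, 0.778 between Wdfy4 and Itgae, 0.752 between Id2 and Cadm1, 0.736 between Irf8 and Id2, and 0.467 between Batf3 and Wdfy4. The 5 genes most like Batf3 were Aif1 (0.988), Tnni2 (0.985), Napsa (0.985), Cd244a (0.983) and Flt3 (0.983). For Wdfy4 they were Il10ra (0.984), Kmo (0.98), Batf3 (0.979), Napsa (0.976) and Plbd1 (0.971), and for Itgae Fgd2 (0.982), Marchf1 (0.979), Myo1f (0.976), Havcr2 (0.974) and Rgs18 (0.973). The genes most like Irf8 had lower values, with Arsb (0.898), Derl2 (0.887), Tmem134 (0.883), Cd207 (0.88) and Hsd3b7 (0.876). Id2 was most like Trim30d (0.9), Slc66a2 (0.884), Prr5l (0.883), Bcap29 (0.88) and Alox5ap (0.866), and Cadm1 most like Met (0.896), Rab30 (0.88), Stx3 (0.852), Mvb12a (0.851) and Rnh1 (0.85).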

How the data were processed

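RNA of sorted cells was hybridised to Affymetrix arrays. Thymi were digested with enzymes and cells sorted by flow cytometry, per the series' design text, and biotinylated cRNA was made from Trizol-extracted RNA, per the labels' protocols. The authors deposited log2 signals per probe set, normalised with Gene Expression Commons per the series' design text, and the submitters' processing notes name GCRMA. The values' range gave the log base, and no further scaling was applied.

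Of 45101 probe sets, 64 were controls, and the 34945 that carry 1 gene symbol alone were kept, for 18193 genes. Genes above the pooled median (5.66) in at least 2 arrays were tested, 14495 in all, with limma 3.58.1 in R 4.3.3: 18 group means, 18 residual degrees of freedom, an intensity trend, and Benjamini-Hochberg adjustment over all genes. Populations were called at adjusted p under 0.05 and 2-fold, and ages, pairs of populations and comparisons within 1 age at adjusted p under 0.05. The model was tested on simulated data.

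The 6 genes and the 19 lists (195 genes, 181 in the table, 176 tested) were chosen with earlier results of these data known. Named from lists were at most 4 called genes between the dendritic populations, at most 2 of each family in other comparisons, and genes that define a population. Clec9a, Tlr11 and Ifi205 were not used here. Samples of different groups that share a number were checked for common deviations. At 1, 3 and 6 months, 4, 10 and 3 of 15 correlations were over 0.1. Sirpa- with Sirpa+ DC gave 0.1, 0.42 and 0, and 0.42 was the highest at 3 months. Shared deviations at 3 months are thus possible. The numbers were not taken as pairs in the fit of all groups, and a replicate block was tried among the alternatives. The alternatives tried were other scalings, filters, fold limits, variance models, probe set choices and sample sets, and each array left out in turn.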

Additional observations from a re-analysis of the deposited data

Results flagged for a closer look

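In each of the 36 sets of 6 arrays of a gene and population, the highest or lowest array was flagged where its gap to the next, over the whole range, exceeded Dixon's critical value for 6 samples at 95%, and chance alone flags about 1 set in 20. There were 2 such arrays. Cadm1 was at 5.61 in the second fibroblast array at 6 months, against 7.16 to 7.88 in the other fibroblast arrays. The same array had the lowest mean of fibroblast markers among the fibroblast arrays, 9.39, and the lowest Irf8 signal of all arrays, 7.88. Batf3 was at 4.65 in the first cTEC array at 6 months, against 4.98 to 5.15 in the other cTEC arrays, a range below the median of all values.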

How the results depend on the processing

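No difference of the 6 genes changed sign among the calls. Over every alternative 6116 results kept their side of the threshold, 79 lost a call and 33 gained one. Direction was compared only for results called in the fit of all groups, and some uncalled differences changed sign. Calls among the 6 genes at 4-fold for populations were 0 between Sirpa- and Sirpa+ DC (3 at 2-fold), 3 between Sirpa+ DC and non-dendritic cells (5), 1 between mTEChi and mTEClo (4), 0 between cTEC and mTEC (2) and 1 between fibroblasts and epithelium (2). With a gene's probe sets averaged, cTEC against mTEC gave 1 call (2 with the brightest), and 3 months against 1 month within populations 2 (4). With array weights, and with only the compared groups fitted, 6 months against 1 month in the mean of both DC gave 1 call (0). Leaving out 1 array in turn (36 fits; the lone array of a group is assumed to vary like the other groups) gave 2 to 3 calls between Sirpa- and Sirpa+ DC, 6 and 4 to 5 for Sirpa- and Sirpa+ DC against non-dendritic cells, 4 for mTEChi against mTEClo, 1 to 2 for cTEC, 2 to 3 for fibroblasts, 70 to 73 for pairs, 2 to 5 at 3 months and 1 to 4 at 6 months within populations, and 0 to 1 at each age in the mean of both DC. The replicate block gave 2 calls at 6 months within populations (3 without), losing Wdfy4 in fibroblasts (0.98, adjusted p = 0.0546), and the same number of calls elsewhere. Without the 1-month arrays, chosen after seeing the data, 2 genes were called between Sirpa- and Sirpa+ DC and 4 between mTEChi and mTEClo, and without fibroblasts 6 and 4 for Sirpa- and Sirpa+ DC against non-dendritic cells. Counts over all genes moved with the samples fitted: with only the compared groups, fibroblasts at 6 months had 0 calls (5250 in the fit of all groups) and at 3 months 1210 (2962), cTEC at 6 months 229 (935), the mean of both DC at 6 months 3063 (1156), and the test of unlike change in both DC at 6 months 49 (2). With array weights, Sirpa+ DC at 3 months had 19 calls (48), fibroblasts at 6 months 3172 the mean of both DC at 6 months 3368, and the test of unlike change 90. At 4-fold, all genes called were 213 between Sirpa- and Sirpa+ DC (779), 1303 and 1221 for Sirpa- and Sirpa+ DC against non-dendritic cells (3450 and 3148), 855 between mTEChi and mTEClo (2845), 478 for cTEC (1978) and 1110 for fibroblasts (3237); at 2-fold for ages, 1473 and 2645 in fibroblasts at 3 and 6 months, 586 in cTEC at 6 months, and 35 (75) and 198 in the mean of both DC. Quantile normalisation moved the share of calls that were higher to 42.1% in cTEC at 3 months (28.2% as deposited) and, at 6 months, 36.3% in mTEChi (64.9%), 37.4% in the mean of both DC (59.5%), 38.6% in Sirpa- DC (59.5%), and 44% in Sirpa+ DC (65.2%) when quantiles were equalised. The cause was not tested. Limits are 2 arrays per group, signals near background for Batf3, Itgae and Wdfy4 in several populations, and bulk RNA.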
